A study of Mus musculus with 40 samples.

Results

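Myeloid cells of experimental gliomas were examined for 10 genes of the TNF, IL-6, IL-12 and IL-15 cytokine systems. They were 9 secreted or membrane-bound cytokines (Tnf, Tnfsf10, Tnfsf13b, Il6, Osm, Il27, Il12b, Il10 and Il15) and the receptor chain Il15ra, chosen by name from the 54513 rows of each of 3 expression tables. The choice was made with earlier results of these data known. RNA was sequenced from CD11b+ cells, which were sorted from the brain hemisphere of naive mice or from the hemisphere that carried the tumor. The mice were males aged 10 to 12 weeks, and vehicle or peptide reached the tumor from an osmotic pump installed at implantation. Values are RPKM, reads scaled to transcript length and library size, and a higher RPKM stands for more RNA of a gene per length among all RNA of the sorted cells.

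The first experiment used C57BL/6 mice with GL261 gliomas, a mouse glioma line grown in its own strain, at 21 days post-implantation (DPI). It compared naive mice, vehicle (water), 7aaRGD and 7aaRAE, with 3 samples in each group and 2 pooled animals per sample. 7aaRGD is a short peptide made to block binding to integrins, and 7aaRAE is its control, with the integrin-binding motif changed; both filled the pump at 2 mg/ml. The second experiment collected single mice at 28 DPI after vehicle (4 samples), 7aaRGD (4 samples), anti-PD-1 antibody (3 samples) or 7aaRGD with anti-PD-1 (3 samples). Anti-PD-1 blocks an inhibitory receptor of T cells and was injected intraperitoneally at 10 mg/kg. Mice without it received control IgG according to the study's methods. The deposited sample names call these 28 DPI animals nude mice, whereas the study's methods describe GL261 gliomas in immunocompetent C57BL/6 mice. The study's discussion adds that joint effects of checkpoint inhibitors and 7aaRGD were not testable in immunodeficient mice. The tables alone could not settle this difference, and the 28 DPI groups are called GL261 here on the study's description. 1 further sample each of anti-PD-1 and of the combination was not analysed here. The third experiment used athymic nude mice, which lack mature T cells, with gliomas of the human line U87-MG at 21 DPI, and compared vehicle, 7aaRGD and 7aaRAE in 3 samples each of 2 pooled animals. Naive nude mice were not analysed here.

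Pooling hides differences between animals, and in sorted bulk RNA fewer cells of a type and less RNA per cell cannot be told apart. Within groups, samples correlated at r from 0.9658 to 0.9976 across genes. Itgam, which encodes CD11b, was between 51.2 and 195 RPKM in all samples analysed, whereas the summed RPKM of the T cell genes Cd3e, Cd3d and Cd3g reached at most 3.15 in any sample. It was 1.41 to 3.15 with 7aaRGD against 0.0732 to 1.27 with vehicle at 21 DPI in GL261, and 0.842 to 1.44 with the combination against 0.0583 to 0.304 with vehicle at 28 DPI, in both cases without overlap. Depth per sample was not given with the tables, so the error of each value comes only from the spread between samples.

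Tnf, Tnfsf10 (TRAIL) and Tnfsf13b (BAFF) belong to the TNF superfamily, whose members signal through trimeric receptors toward NF-kB, cell death or lymphocyte survival. Il6 and Osm (oncostatin M) act through the shared receptor chain gp130, encoded by Il6st, and STAT3. Il12b and Il27 encode subunits of the IL-12 family that direct T and NK cell responses, Il10 restrains inflammatory myeloid cells, and Il15 is handed to NK and CD8+ T cells while bound to Il15ra on the surface of the producing cell. In the brain, activated microglia and monocyte-derived macrophages are well known sources of several of these cytokines. In build mm10 with the GENCODE M21 annotation, Tnf spans chr17:35199381-35202007, Tnfsf10 chr3:27317028-27342427, Tnfsf13b chr8:10006467-10039072, Il6 chr5:30013114-30019981, Osm chr11:4236420-4241026, Il27 chr7:126589010-126594941, Il12b chr11:44400063-44414033, Il10 chr1:131019845-131024974, Il15 chr8:82331632-82403222 and Il15ra chr2:11705290-11734317.

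The plot of all samples shows that the 10 genes differed widely in level. Osm and Tnf were the highest, Il15, Il15ra, Il27, Tnfsf10 and Tnfsf13b lay between about 1 and 17 RPKM, and Il6, Il12b and Il10 were at or near the lower end. Tables were normalised separately, so levels from different experiments stand side by side without a test. In vehicle-treated gliomas, mean Osm was 166 ± 33.5 RPKM at 21 DPI in GL261 (SD, n = 3), 43.2 ± 12.8 RPKM at 28 DPI in GL261 (SD, n = 4) and 26.5 ± 1.74 RPKM in U87-MG (SD, n = 3). Mean Tnf in the same groups was 20.5 ± 0.218, 13.8 ± 4.75 and 31.7 ± 7.13 RPKM.

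**Figure D1:**
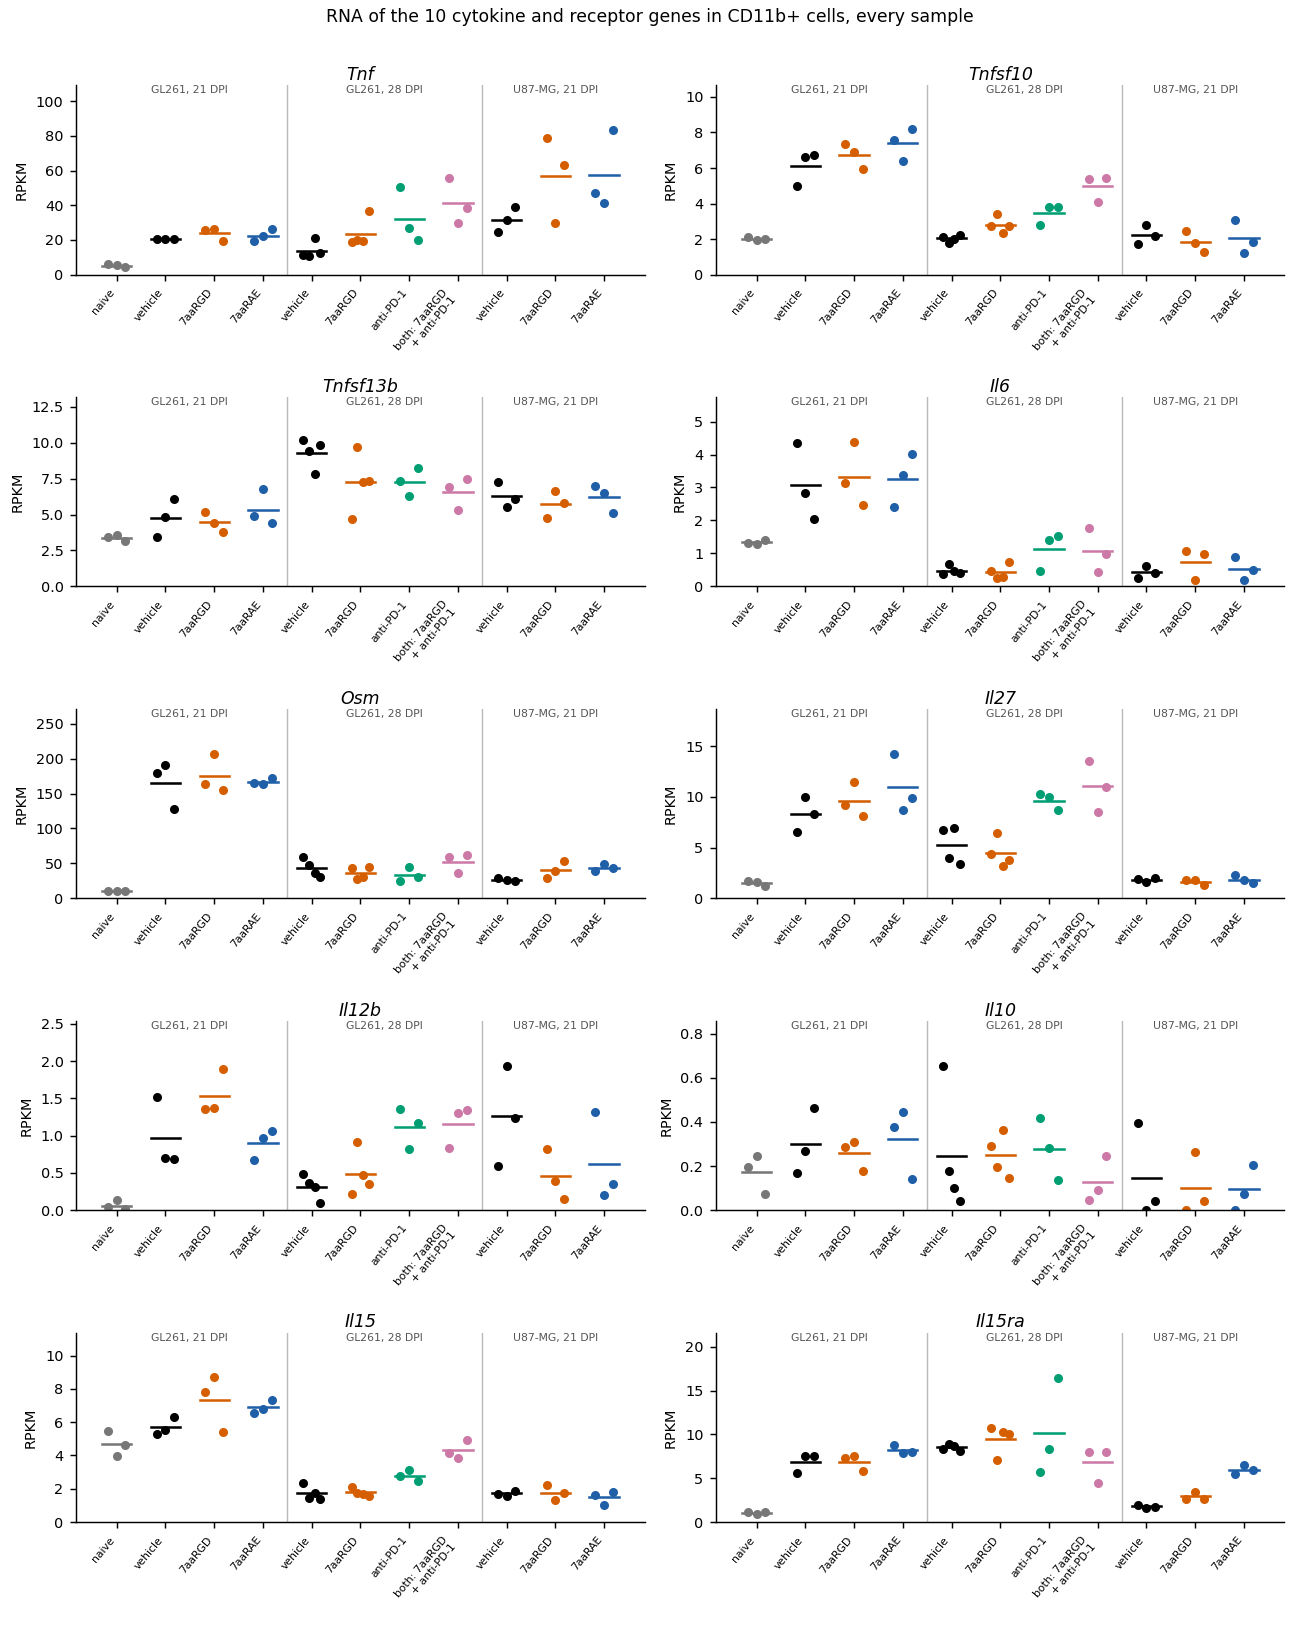
RPKM of each of the 10 genes in every sample (points, 1 per sample) with the group mean (horizontal line), in GL261 gliomas at 21 and 28 DPI and U87-MG gliomas at 21 DPI; each panel has its own linear axis from 0. Osm rose from about 10.6 RPKM in naive mice to 166 RPKM in vehicle-treated GL261 gliomas at 21 DPI. Il15 and Tnfsf10 were higher under the combination than in the other 28 DPI groups, but not than in GL261 gliomas at 21 DPI. Il15ra in U87-MG gliomas was highest with 7aaRAE.

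The comparison of vehicle-treated GL261 gliomas with naive brain asked how far these genes differed in CD11b+ cells of tumor-bearing mice. Vehicle mice also had surgery and a pump that infused water, and the study describes no such procedure for naive mice. No group had the pump without a tumor, so the tumor and these procedures cannot be told apart. Of the 8 genes that averaged 1 RPKM or more, 7 were higher in glioma and none was lower, by limma on log2(RPKM + 1) with Benjamini-Hochberg adjustment over 9728 protein-coding genes and a threshold of 0.05. Across all tested genes 82.9% passed the threshold, 34.6% higher and 48.2% lower in glioma. The median difference was 1.51 (log2) over the 8 genes and -0.14 over all tested genes; rescaling to equal size factors moved the latter to 0.

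Osm, a gp130 cytokine released by macrophages and neutrophils, was 10.7, 10.7 and 10.3 RPKM in naive mice and 179, 191 and 128 RPKM in glioma. The groups lay far apart. The difference was 3.83 (log2, SE 0.14, limma adjusted p = 8.93e-08).

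Tnf, the prototype of its superfamily, was 5.97, 5.41 and 4.22 RPKM in naive mice and 20.3, 20.4 and 20.7 RPKM in glioma. All glioma samples were higher and almost equal to each other, with a difference of 1.80 (log2, limma adjusted p = 8.48e-07). Tnfsf10, which induces apoptosis through death receptors, was 2.13, 1.93 and 2.00 RPKM in naive mice and 4.99, 6.61 and 6.73 RPKM in glioma. Every glioma sample exceeded every naive sample (1.23 on the log2 scale, limma adjusted p = 8.61e-06).

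Il15ra, the chain that binds and presents IL-15, was 1.13, 0.864 and 1.16 RPKM in naive mice and 5.59, 7.55 and 7.50 RPKM in glioma. Its ligand Il15 was 5.47, 3.99 and 4.63 RPKM in naive mice and 5.29, 5.53 and 6.30 RPKM in glioma. Every glioma sample exceeded the naive ones in the receptor, whereas 1 naive sample lay among the glioma samples in the ligand. Il15ra rose by 1.94 (log2, limma adjusted p = 1.16e-06), whereas Il15 differed by 0.24 and did not pass (limma adjusted p = 0.0599); the difference between these changes was not tested.

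Il27, a subunit of the IL-27 heterodimer, was 1.72, 1.58 and 1.20 RPKM in naive mice and 6.54, 9.99 and 8.34 RPKM in glioma, a rise of 1.88 (log2, limma adjusted p = 4.60e-06). Il6 was 1.31, 1.30 and 1.41 RPKM in naive mice and 4.34, 2.84 and 2.04 RPKM in glioma, a rise of 0.76 (log2, limma adjusted p = 0.00436). Both were higher in every glioma sample, with the glioma values of Il6 spread over a wider range than the naive ones. Tnfsf13b, a survival factor of B cells, was 3.42, 3.58 and 3.13 RPKM in naive mice and 3.44, 4.81 and 6.07 RPKM in glioma. The lowest glioma sample lay among the naive samples, and the rise of 0.37 (log2, limma adjusted p = 0.0483) lost the call under 9 of 14 alternatives.

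Il12b, the p40 chain shared by IL-12 and IL-23, and Il10 were under the filter of 1 RPKM. Il12b was 0.0387, 0.134 and 0.0135 RPKM in naive mice and 1.52, 0.698 and 0.692 RPKM in glioma, without overlap. In the fit without a filter on low values it was higher in glioma by 0.87 (log2, limma adjusted p = 0.00604). Il10 was at most 0.461 RPKM in any sample of this experiment and differed by 0.15 (log2, limma adjusted p = 0.259 without the filter).

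The accompanying gene lists were chosen with earlier results of these data known, so their counts and medians are not independent support. Around these cytokines, 12 of 13 NF-kB feedback genes, 11 of 12 STAT3 target genes and 15 of 16 interferon-responsive genes were higher in glioma, with medians of 1.72, 1.97 and 4.80 (log2) against -0.14 over all genes. One STAT3 target and one interferon-responsive gene were lower. Among them were Ier3 (4.50), Pim1 (4.69), Il1rn (6.67), the antagonist of the IL-1 receptor, and Irf7 (6.57), a regulator of type I interferon. Receptors went both ways, with 4 of 12 higher and 7 lower, shares close to the 34.6% and 48.2% of all genes. Il2rg, the common chain through which IL-15 signals, rose by 4.69, whereas Il6st and Il6ra, the receptor chains of IL-6, fell by 2.25 and 1.72 on the log2 scale. Of 8 partner subunits and related ligands tested, 5 were higher, such as Tnfsf13 (2.65) and Tnfsf14 (2.53), and 2 were lower, among them Clcf1 (-1.60). Of 13 regulators of shedding and mRNA decay, 4 were higher and 7 lower; Rhbdf2, which carries the TNF-releasing protease ADAM17 to the cell surface, rose by 2.17 and Zc3h12a, which degrades Il6 mRNA, by 2.05. The sorted population also differed in its cells. All 7 microglial markers were lower (median -3.46), 6 of 7 monocyte and macrophage markers were higher (median 5.54), and 10 of 16 dissociation-induced genes were higher and 3 lower. The part of these shifts in the cytokine differences was not tested.

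The sequence next to the start sites was available for some of these genes. From the RefSeq promoter windows of build GRCm38.p6, 8 windows matched 6 of the 10 genes; Il10, Il15, Il27 and Osm had none. The 250 bases before each start were searched on both strands for the NF-kB consensus, found in 3.90% of 32851 windows, and for 3 other motifs: TTCNNNGAA (STAT, 7.02%), GAAA-NN-GAAA (interferon-stimulated element, 2.98%) and TGANTCA (AP-1, 6.75%). The windows of Tnf (chr17:35202008-35202257, minus strand), Il6 (chr5:30012864-30013113, plus strand) and Tnfsf10 (chr3:27316827-27317076, plus strand) are shown because these genes were higher in glioma. Of Il15ra, the window of the first start (chr2:11705043-11705292, plus strand) and the last 30 bases before the second (chr2:11705682-11705711, plus strand) are shown, since its RNA differed most with the control peptide described further on. Capitals mark a motif match, and the sequences read 5′ to 3′ toward the start:
Tnf: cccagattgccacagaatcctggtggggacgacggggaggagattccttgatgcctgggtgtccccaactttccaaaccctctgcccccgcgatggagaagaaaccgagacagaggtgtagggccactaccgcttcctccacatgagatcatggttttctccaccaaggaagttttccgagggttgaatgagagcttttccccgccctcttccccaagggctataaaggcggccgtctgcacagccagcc
Il6: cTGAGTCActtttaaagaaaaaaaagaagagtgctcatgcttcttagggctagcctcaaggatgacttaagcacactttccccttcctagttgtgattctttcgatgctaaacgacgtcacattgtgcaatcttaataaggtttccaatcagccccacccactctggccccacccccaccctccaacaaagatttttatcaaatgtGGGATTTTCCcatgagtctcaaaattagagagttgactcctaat
Tnfsf10: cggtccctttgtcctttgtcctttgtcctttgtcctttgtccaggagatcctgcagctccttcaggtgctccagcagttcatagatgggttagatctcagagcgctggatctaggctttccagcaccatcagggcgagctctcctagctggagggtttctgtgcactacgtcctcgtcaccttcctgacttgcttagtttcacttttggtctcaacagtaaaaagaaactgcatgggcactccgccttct
Il15ra, first start: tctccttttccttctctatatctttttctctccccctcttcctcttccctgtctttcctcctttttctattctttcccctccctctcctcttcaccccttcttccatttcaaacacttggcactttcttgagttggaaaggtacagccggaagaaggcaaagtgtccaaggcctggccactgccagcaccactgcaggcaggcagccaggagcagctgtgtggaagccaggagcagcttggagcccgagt
Il15ra, second start: TGAGTCAcagatctgtcaccacttcgcacc
Il6 held an NF-kB match 44 to 35 bases before its start and an AP-1 match 249 to 243 bases before it. Il15ra held an AP-1 match 30 to 24 bases before the second start. Tnfsf13b, whose sequence is not shown, held an interferon-stimulated element match 16 to 7 bases and an AP-1 match 127 to 121 bases before its second start. These letters were not found in the windows of Tnf, Il12b, Tnfsf10 or the first start of Il15ra, which says nothing about more distant sites.

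The 7aaRGD peptide and its control were then compared with vehicle in GL261 gliomas at 21 DPI. None of the 9 genes tested passed the threshold with either peptide (limma with Benjamini-Hochberg adjustment), against 0.148% of 9441 genes with 7aaRGD and 0% with 7aaRAE. At an unadjusted p under 0.05 stood 1 of the 9 with 7aaRGD (Il12b) and 0 with 7aaRAE, and, over all genes, 1280 and 601. Il12b averaged 0.970 RPKM with vehicle and 0.898 RPKM with 7aaRAE. It met the filter of 1 RPKM only through the 7aaRGD samples (1.54 RPKM), so its testing was not independent of its level there. The differences ranged from -0.06 to 0.39 (log2) with 7aaRGD and from -0.03 to 0.35 with 7aaRAE; both comparisons share the vehicle samples.

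Il12b was 1.52, 0.698 and 0.692 RPKM with vehicle, 1.36, 1.37 and 1.89 RPKM with 7aaRGD and 0.674, 0.963 and 1.06 RPKM with 7aaRAE. Samples with 7aaRGD lay above all samples with 7aaRAE, but 1 vehicle sample lay among them. The difference of 7aaRGD from vehicle was 0.39 (95% interval 0.03 to 0.74, limma adjusted p = 0.34) and from 7aaRAE 0.42 (0.06 to 0.78, limma adjusted p = 0.833).

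Il15 was 5.29, 5.53 and 6.30 RPKM with vehicle, 7.81, 8.71 and 5.40 RPKM with 7aaRGD and 6.57, 6.77 and 7.32 RPKM with 7aaRAE. The 7aaRGD samples were split, with 2 above and 1 among the vehicle samples, and the 7aaRAE samples lay above vehicle. Differences were 0.29 (-0.01 to 0.59) with 7aaRGD and 0.24 (-0.07 to 0.54) with 7aaRAE, and neither passed. Il15ra was 5.59, 7.55 and 7.50 RPKM with vehicle, 7.30, 7.49 and 5.86 RPKM with 7aaRGD and 8.82, 7.92 and 7.97 RPKM with 7aaRAE. Groups of Il15 and Il15ra did not overlap between 7aaRAE and vehicle, 2 of 9 genes against 12.6% of all genes, whereas no gene was without overlap between 7aaRGD and vehicle, against 17.6%.

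The structurally related peptides were compared as 1 pair at the same concentration and time in each model. In GL261 gliomas 0 of 9 genes differed between 7aaRGD and 7aaRAE, against 0% of 9441, with 1 gene (Il12b) and 521 genes at an unadjusted p under 0.05. Il12b was higher and Il15ra lower with 7aaRGD without overlap, 2 of 9 genes against 11.4% of all. Il12b was among the 9 only through its 7aaRGD samples. For Tnf the interval of the difference was -0.22 to 0.37, for Osm -0.28 to 0.40 and for Il15ra -0.49 to 0.03. Each interval includes 0, and any difference within its bounds remains compatible with the values. Of the receptors, partners, shedding regulators and target genes, 0 passed in any of the comparisons of peptides at 21 DPI in GL261.

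Summed markers of other cells differed between 7aaRGD and vehicle at 21 DPI, although no gene of these lists passed. The 7aaRGD samples lay above vehicle for 6 dendritic cell genes (80.1 to 96.1 against 65.9 to 74.2 RPKM), 7 microglial genes (1907 to 2535 against 1268 to 1846 RPKM) and 4 oligodendrocyte and tumor genes (14.6 to 24.5 against 6.32 to 11.3 RPKM). They lay below it for 7 monocyte and macrophage genes (1234 to 1527 against 1561 to 3306 RPKM) and overlapped for 6 NK cell genes (19.1 to 40.0 against 9.29 to 19.5 RPKM). The part of these cells in the values of Il12b, Il15 and the other cytokines was not tested.

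The experiment at 28 DPI asked what PD-1 blockade added, with and without the peptide. Il6, Il10 and Il12b fell under the filter and 7 genes were tested among 9737. With 7aaRGD alone 0 of 7 passed, against 0.647% of all genes, and Tnf, Tnfsf10 and Tnfsf13b were among 1421 genes at an unadjusted p under 0.05. With anti-PD-1 alone 4 of 7 were higher (Tnf, Tnfsf10, Il27 and Il15) and none was lower, against 23.1% of all genes called, 10.8% higher and 12.2% lower. With the combination the same 4 genes were higher, against 17.5% of all genes, and Tnfsf13b was lower, against 25.8%. Over all genes 1707 were higher and 2508 lower with the combination, and 2230 and 2066 after rescaling by median ratios, under which the call of Tnfsf13b was lost. Medians over the 7 genes were 0.04, 0.49 and 0.96 (log2) for 7aaRGD, anti-PD-1 and the combination, and over all genes 0.01, 0.00 and -0.05. The 3 comparisons share the vehicle samples.

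Tnfsf10 was 2.13, 1.79, 2.02 and 2.25 RPKM with vehicle, 2.75, 3.39, 2.35 and 2.73 RPKM with 7aaRGD, 2.81, 3.80 and 3.81 RPKM with anti-PD-1 and 5.36, 4.10 and 5.45 RPKM with the combination. Every treated sample lay above every vehicle sample, and the combination lay above all others. With 7aaRGD it was the 1 of 7 genes without overlap, against 8% of all genes, but the difference of 0.31 did not pass (95% interval 0.08 to 0.54, limma adjusted p = 0.195). Tnfsf10 rose by 0.55 with anti-PD-1 (log2, SE 0.12, limma adjusted p = 0.0049) and by 0.96 with the combination (log2, SE 0.12, limma adjusted p = 3.31e-05), and kept both calls under each alternative in which it was tested.

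Il15 was 2.34, 1.44, 1.72 and 1.36 RPKM with vehicle, 2.12, 1.73, 1.69 and 1.58 RPKM with 7aaRGD, 2.78, 3.10 and 2.45 RPKM with anti-PD-1 and 4.17, 3.86 and 4.92 RPKM with the combination. Vehicle and 7aaRGD overlapped, anti-PD-1 lay above both, and the combination lay above anti-PD-1. The rise was 0.49 with anti-PD-1 (log2, SE 0.12, limma adjusted p = 0.0108) and 0.98 with the combination (log2, SE 0.12, limma adjusted p = 3.74e-05). Without anti-PD-1 sample 2 the former was 0.42 (limma adjusted p = 0.0563).

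Il15ra, the chain that presents IL-15, was 8.31, 8.96, 8.71 and 8.10 RPKM with vehicle, 10.7, 7.06, 10.3 and 10.1 RPKM with 7aaRGD, 5.67, 8.31 and 16.5 RPKM with anti-PD-1 and 7.96, 4.47 and 8.05 RPKM with the combination. The anti-PD-1 samples spanned the whole range seen at 28 DPI except for the lowest combination sample. Every combination sample lay below every vehicle sample, the closest at 8.05 against 8.10 RPKM. Differences from vehicle with 7aaRGD, anti-PD-1 and the combination were 0.13, 0.11 and -0.32 (log2), none of which passed.

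Tnf was 11.3, 10.5, 20.8 and 12.6 RPKM with vehicle, 18.6, 20.0, 19.2 and 36.4 RPKM with 7aaRGD, 50.4, 26.8 and 19.8 RPKM with anti-PD-1 and 55.7, 29.9 and 38.1 RPKM with the combination. One vehicle sample reached the level of the treated samples, and combination samples lay above all vehicle samples. Tnf rose by 1.51 with the combination (log2, SE 0.33, limma adjusted p = 0.00232) and by 1.11 with anti-PD-1 (log2, SE 0.33, limma adjusted p = 0.0261). The latter lost the call in 6 of 17 alternatives, including the fit without a filter. Its lowest value, 0.75 (limma adjusted p = 0.116), came without anti-PD-1 sample 1. Leaving out vehicle sample 1, 2 or 4 or anti-PD-1 sample 2 gave 1.04, 1.01, 1.09 and 1.19. These were near the full value of 1.11 but did not pass, with limma adjusted p from 0.0537 to 0.066. With 7aaRGD alone the difference was 0.72 (95% interval 0.07 to 1.37, limma adjusted p = 0.286).

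Il27 was 6.72, 4.01, 6.94 and 3.40 RPKM with vehicle, 4.38, 6.45, 3.17 and 3.82 RPKM with 7aaRGD, 10.3, 9.96 and 8.67 RPKM with anti-PD-1 and 13.6, 8.55 and 11.0 RPKM with the combination. All samples with the antibody lay above all samples without it. The rise was 0.81 with anti-PD-1 (log2, SE 0.23, limma adjusted p = 0.0225) and 0.97 with the combination (log2, SE 0.23, limma adjusted p = 0.00416). The former did not pass without vehicle sample 2 (0.72, limma adjusted p = 0.0608) or 4 (0.65, 0.0592), or without anti-PD-1 sample 1 (0.76, 0.0676) or 2 (0.78, 0.0737). Exons of Il27 overlap those of Apobr on the other strand; the study's methods state counting by strand.

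Tnfsf13b was 10.2, 9.40, 7.84 and 9.83 RPKM with vehicle, 4.71, 9.66, 7.23 and 7.32 RPKM with 7aaRGD, 7.35, 6.26 and 8.22 RPKM with anti-PD-1 and 6.89, 5.33 and 7.47 RPKM with the combination. Combination samples lay below all vehicle samples, and both other groups overlapped with vehicle. The fall with the combination by 0.45 on the log2 scale was near the threshold (SE 0.17, limma adjusted p = 0.0483) and lost the call in 12 of 17 alternatives, both rescalings included.

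Osm was 59.0, 47.5, 36.1 and 30.1 RPKM with vehicle, 42.7, 28.0, 30.7 and 45.3 RPKM with 7aaRGD, 24.3, 45.5 and 29.9 RPKM with anti-PD-1 and 58.6, 36.6 and 61.6 RPKM with the combination. All groups overlapped, and no difference of Osm from vehicle passed.

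Of the genes under the filter, Il12b was 0.486, 0.362, 0.316 and 0.102 RPKM with vehicle, 0.213, 0.917, 0.473 and 0.356 RPKM with 7aaRGD, 1.36, 0.821 and 1.17 RPKM with anti-PD-1 and 0.830, 1.30 and 1.34 RPKM with the combination. Both antibody groups lay above vehicle, by 0.69 and 0.71 in the fit without a filter (log2, limma adjusted p = 0.0138 and 0.00498). Il6 was between 0.375 and 0.668 RPKM with vehicle, 0.252 and 0.739 with 7aaRGD, 0.474 and 1.54 with anti-PD-1 and 0.443 and 1.78 with the combination, with no difference that passed. Il10, the anti-inflammatory cytokine of the group, stayed at or under 0.653 RPKM in all samples and differed by -0.12 to 0.06 from vehicle (limma adjusted p of at least 0.568 without the filter).

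**Figure D2:**
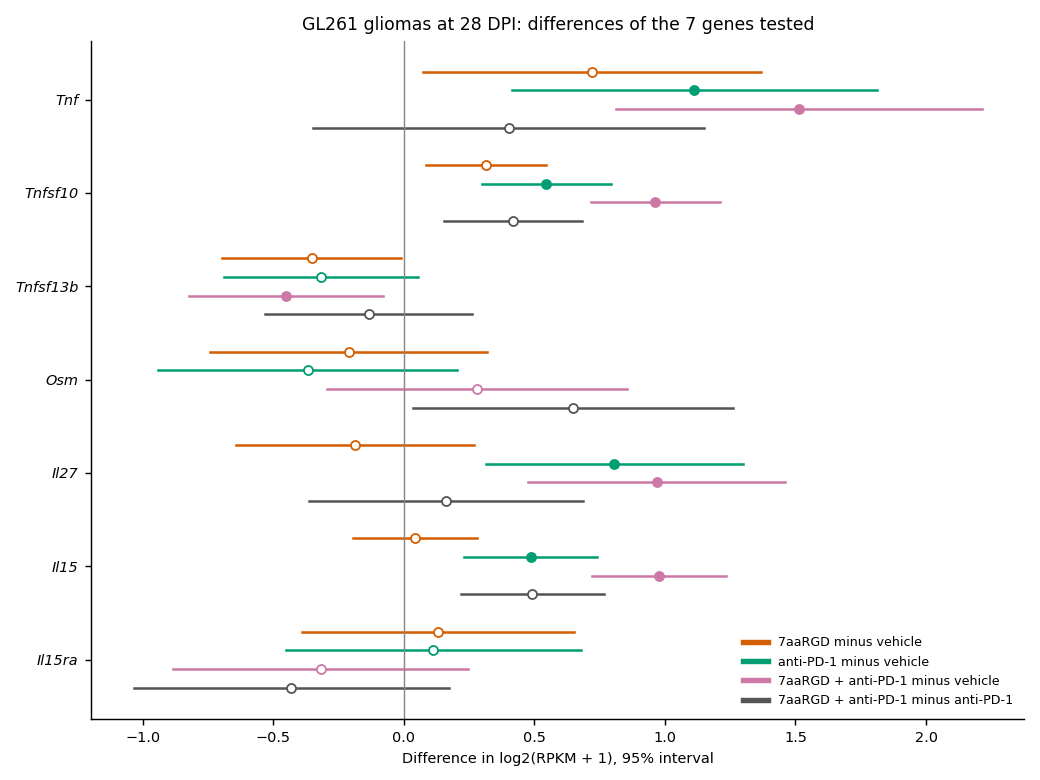
Difference in log2(RPKM + 1) of the 7 tested genes at 28 DPI (points, with 95% intervals as lines) for 7aaRGD, anti-PD-1 and the combination against vehicle and for the combination against anti-PD-1; filled points passed the adjusted threshold of 0.05. Tnfsf10 and Il15 lay at about 0.96 and 0.98 with the combination, and none of the 7 genes passed between the combination and anti-PD-1.

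Whether the peptide added to the antibody was examined by comparing the combination with each single treatment. Against anti-PD-1, 0 of 7 genes passed with limma, against 0.0411% of all genes, and Il15, Tnfsf10 and Osm were among 1461 genes at an unadjusted p under 0.05. Il15 and Tnfsf10 did not overlap between these groups, 2 of 7 genes against 21.5% of all. Il15 was higher by 0.49 (95% interval 0.22 to 0.77, limma adjusted p = 0.0977), Tnfsf10 by 0.42 (0.15 to 0.68, limma adjusted p = 0.136) and Osm by 0.65 (0.04 to 1.26, limma adjusted p = 0.303). Against 7aaRGD, 3 of 7 were higher, against 13% of all genes: Il27 by 1.15 (limma adjusted p = 0.00189), Il15 by 0.93 (0.000104) and Tnfsf10 by 0.65 (0.000948). Tnf differed by 0.79 (limma adjusted p = 0.072), and by 1.01 without 7aaRGD sample 4, the highest of its group (0.0271). The interaction, which tests whether the combination differed from the sum of both single effects, passed for 0 of 7 and 0% of 9737 genes. At an unadjusted p under 0.05 stood Il15 (0.45, limma adjusted p = 0.588) and Osm (0.86, 0.602) and, over all genes, 794.

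The genes around the cytokines were described in the same comparisons. Interferon-responsive genes were higher in 13 of 16 cases with anti-PD-1 (median 0.75) and in 13 of 16 with the combination (median 0.89), and none was lower. NF-kB feedback genes were higher in 6 of 12 and 10 of 12 cases, with medians of 0.49 and 0.85. Nfkb2, a subunit of the alternative NF-kB pathway, rose by 0.80 and 1.16, Traf1 by 1.05 and 1.49 and the adhesion molecule Icam1 by 0.48 and 0.78. STAT3 targets were higher in 1 of 12 (Il1rn, 1.36) and 3 of 12 cases, with 0 and 1 lower and medians of 0.02 and 0.28.

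Receptors were higher in 2 of 12 cases with anti-PD-1 (10.8% of all genes) and 6 of 12 with the combination (17.5%), and lower in 1 (12.2%) and 2 (25.8%). Their medians were 0.19 and 0.43, against 0.00 and -0.05 over all genes, and the anti-PD-1 counts lie near the shares of all genes. Il2rg rose by 0.97 and 1.18 and Il12rb2, the signalling chain of the IL-12 receptor, by 0.89 and 1.29, while Il6ra fell by 0.31 with anti-PD-1. Of the partners, 0 of 8 passed with anti-PD-1, where Ltb was at 0.44 (limma adjusted p = 0.0575), and with the combination Ltb rose by 0.92 and Clcf1 fell by 0.38. Of 12 regulators of shedding and decay, 3 and 5 were higher and 0 and 1 lower. Adam17, the protease that releases TNF from the membrane, rose by 0.60 and 0.62, and the RNA-binding protein Elavl1 by 0.27 and 0.37. With 7aaRGD alone, against anti-PD-1 and in the interaction, 0 genes of these lists of receptors, partners, regulators and target genes passed.

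**Figure D3:**
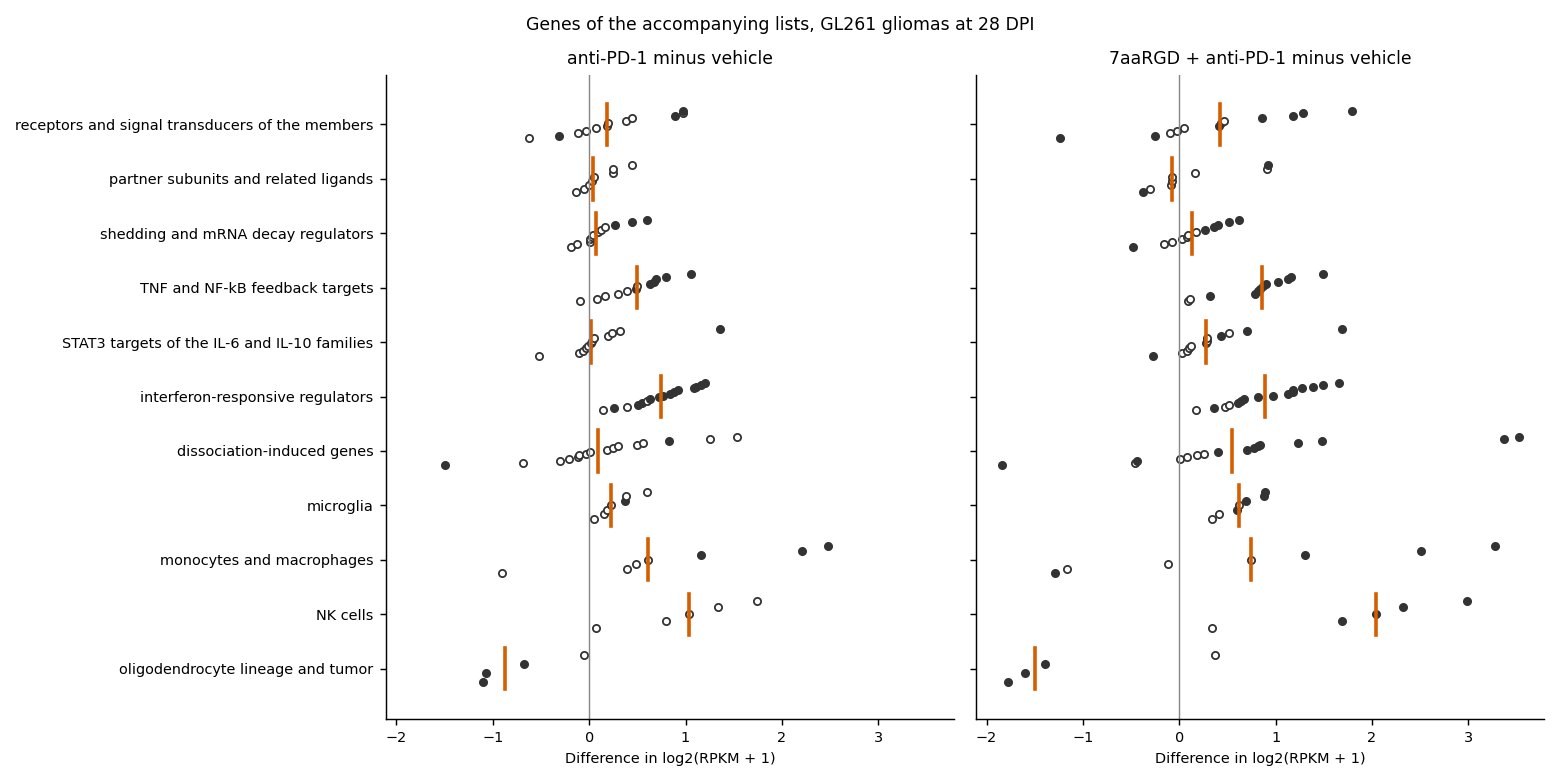
Difference in log2(RPKM + 1) from vehicle at 28 DPI for each tested gene of the accompanying lists (points; filled where the adjusted p was under 0.05) and the median of each list (vertical bar), for anti-PD-1 (left) and the combination (right). Medians of interferon-responsive genes were 0.75 and 0.89, and 3 of 4 oligodendrocyte and tumor genes were lower in both.

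Other cells and signs of handling moved with these groups. The summed RPKM of 6 NK cell genes was 2.33 to 8.78 with vehicle, 1.60 to 8.56 with 7aaRGD, 2.08 to 50.9 with anti-PD-1 and 20.9 to 71.2 with the combination; 4 of 5 tested were higher with the combination and 0 with anti-PD-1. Of 7 monocyte and macrophage markers, 3 were higher and 1 was lower with the combination: Plac8 (3.28), Ly6c2 (2.51) and Ccr2 (1.30) rose and Mrc1 fell by 1.29, while Arg1 (0.74), Chil3 (-1.16) and Ms4a7 (-0.11) did not pass. Their sum was 597 to 1380 RPKM with the combination and 508 to 1465 RPKM with anti-PD-1, overlapping 432 to 856 RPKM with vehicle. The summed RPKM of 6 dendritic cell genes was 12.4 to 16.6 with the combination and 4.04 to 17.4 with anti-PD-1 against 1.21 to 2.86 with vehicle, and both tested genes rose in each, Cd209a by 2.45 and 1.78. Microglial markers summed to 2226 to 2357 RPKM with the combination against 1509 to 2122 RPKM with vehicle. With 7aaRGD they summed to 1756 to 3076 RPKM and with anti-PD-1 to 1676 to 2403 RPKM, overlapping both. With the combination 4 of 7 were higher, Cx3cr1, Gpr34, P2ry12 and Sall1. Only Cx3cr1 also passed with 7aaRGD (0.46, limma adjusted p = 0.0342) and with anti-PD-1 (0.37, limma adjusted p = 0.014). The call with 7aaRGD was among those lost with rescaling. The summed genes of oligodendrocytes and tumor were 17.7 to 32.0 RPKM with vehicle and 6.66 to 8.04 RPKM with the combination. Of 16 dissociation-induced genes, 9 were higher and 2 lower with the combination, with summed values of 1607 to 2060 against 1350 to 1710 RPKM with vehicle. Among them were the near-identical heat shock genes Hspa1a and Hspa1b, whose reads may be shared. The part of these cells and genes in the differences of Tnf, Tnfsf10, Il15 and Il27 was not tested; with anti-PD-1 alone, 1 of 16 dissociation-induced genes was higher and 1 lower.

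Genes with a closely similar pattern over the 14 samples at 28 DPI are given as a description, with all points sharing the treatment groups. They were Tor3a (Pearson r = 0.981), Znfx1 (0.974) and Adar (0.969) for Tnfsf10, Adora2b (0.956), Nos2 (0.955) and Rmdn3 (0.95) for Il15, and Psmb10, Clec2d (both 0.938) and Crocc (0.936) for Il27. Itpr1 (0.932) and Nfkbiz (0.93) were among the closest to Tnf. Btg2 (0.942), Cd14 (0.893) and Enpp2 (0.852) came closest to Osm, Trdmt1 (0.878), Pdlim2 (0.87) and Ikbkg (0.852) to Tnfsf13b, and Wdfy1 (0.897), Galnt11 (0.867) and Speg (0.855) to Il15ra.

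In U87-MG gliomas at 21 DPI the same peptides were compared in mice without mature T cells. Il6, Il10 and Il12b were again under the filter. With 7aaRGD 0 of 7 genes passed by limma, against 0% of 9665, and with 7aaRAE 1 of 7 passed, Il15ra, which was the only gene of the whole table called (0.0103%). At an unadjusted p under 0.05 stood Il15ra and Osm in both comparisons, among 364 and 746 genes. Both comparisons share the vehicle samples.

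Il15ra was 1.93, 1.63 and 1.77 RPKM with vehicle, 2.68, 3.41 and 2.66 RPKM with 7aaRGD and 5.50, 6.50 and 5.89 RPKM with 7aaRAE. The 3 groups were separate, with 7aaRGD between vehicle and 7aaRAE. The rise with 7aaRAE was 1.32 (log2, SE 0.10, 95% interval 1.09 to 1.55, limma adjusted p = 0.00332), and its adjusted p ranged from 0.00222 to 0.0445 over 13 alternatives. With 7aaRGD the difference was 0.49 (95% interval 0.26 to 0.72, limma adjusted p = 0.941). The ligand Il15 was 1.69, 1.57 and 1.88 RPKM with vehicle, 2.20, 1.34 and 1.76 RPKM with 7aaRGD and 1.64, 1.03 and 1.83 RPKM with 7aaRAE, and these groups overlapped.

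Between the peptides, Il15ra was lower with 7aaRGD than with 7aaRAE by 0.83 on the log2 scale (95% interval of the difference -1.06 to -0.60). No gene passed in this comparison (0 of 7 and 0% of 9665 by limma, with 1 and 327 at an unadjusted p under 0.05), and the adjusted p of Il15ra was 0.166. Without the 7aaRGD sample at 3.41 RPKM, the highest of its group, the difference was -0.92 (limma adjusted p = 0.0305). It was the 1 gene of 7 whose peptide groups did not overlap, against 6.47% of all genes. In GL261 gliomas at the same time, Il15ra was also lower with 7aaRGD than with 7aaRAE, by 0.23 with an interval of -0.49 to 0.03, which did not pass.

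Tnf was 24.7, 31.4 and 38.9 RPKM with vehicle, 78.6, 29.6 and 63.1 RPKM with 7aaRGD and 47.1, 41.2 and 83.3 RPKM with 7aaRAE. Samples with 7aaRAE lay above vehicle, and 1 sample with 7aaRGD lay among the vehicle samples. Differences were 0.74 (95% interval -0.09 to 1.58, limma adjusted p = 0.941) and 0.79 (-0.05 to 1.62, limma adjusted p = 0.651).

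Osm was 28.5, 25.6 and 25.5 RPKM with vehicle, 28.7, 39.3 and 52.8 RPKM with 7aaRGD and 39.1, 49.0 and 43.7 RPKM with 7aaRAE. Each peptide group lay above vehicle, with the lowest 7aaRGD sample only just so. Differences were 0.54 (95% interval 0.12 to 0.97, limma adjusted p = 0.941) and 0.70 (0.28 to 1.13, limma adjusted p = 0.376). The study itself names Tnf and Osm for these tumors, so they are not independent evidence of a direction. Without overlap from vehicle were 2 of 7 genes with 7aaRGD (Il15ra and Osm), against 10.8% of all genes, and 3 of 7 with 7aaRAE (also Tnf), against 16.5%. Between the peptides the interval was -0.88 to 0.79 for Tnf and -0.58 to 0.27 for Osm, which leaves room for a difference in either direction.

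Il27, Tnfsf10 and Tnfsf13b lay within 1.33 to 2.33, 1.23 to 3.07 and 4.75 to 7.24 RPKM over the 9 samples, with overlapping groups. Il12b was 0.597, 1.94 and 1.24 RPKM with vehicle, 0.821, 0.390 and 0.154 RPKM with 7aaRGD and 1.32, 0.200 and 0.348 RPKM with 7aaRAE, with a difference of -0.62 for 7aaRGD that did not pass (limma adjusted p = 0.907 without the filter). Il6 reached at most 1.07 RPKM, and Il10 at most 0.397 RPKM, with 1 sample of each group listed at 0. No gene of the accompanying lists passed in U87-MG. The largest differences with 7aaRAE were Ier3 among NF-kB feedback genes (1.07, limma adjusted p = 0.306) and Ltb among the partners (-1.02, 0.328).

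Markers of other cells and handling also moved here. Summed NK cell genes were 7.44 to 20.8 RPKM with vehicle, 1.47 to 7.27 RPKM with 7aaRGD and 0.399 to 2.13 RPKM with 7aaRAE. Summed monocyte and macrophage genes were 89.5 to 100.6 RPKM with vehicle, 66.8 to 117 RPKM with 7aaRGD and 48.6 to 72.0 RPKM with 7aaRAE. Dissociation-induced genes summed to 2277 to 3138, 3092 to 4660 and 2952 to 4098 RPKM with vehicle, 7aaRGD and 7aaRAE. Of these 3 lists no gene passed, and their part in the differences of Il15ra, Osm and Tnf was not tested.

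**Figure D4:**
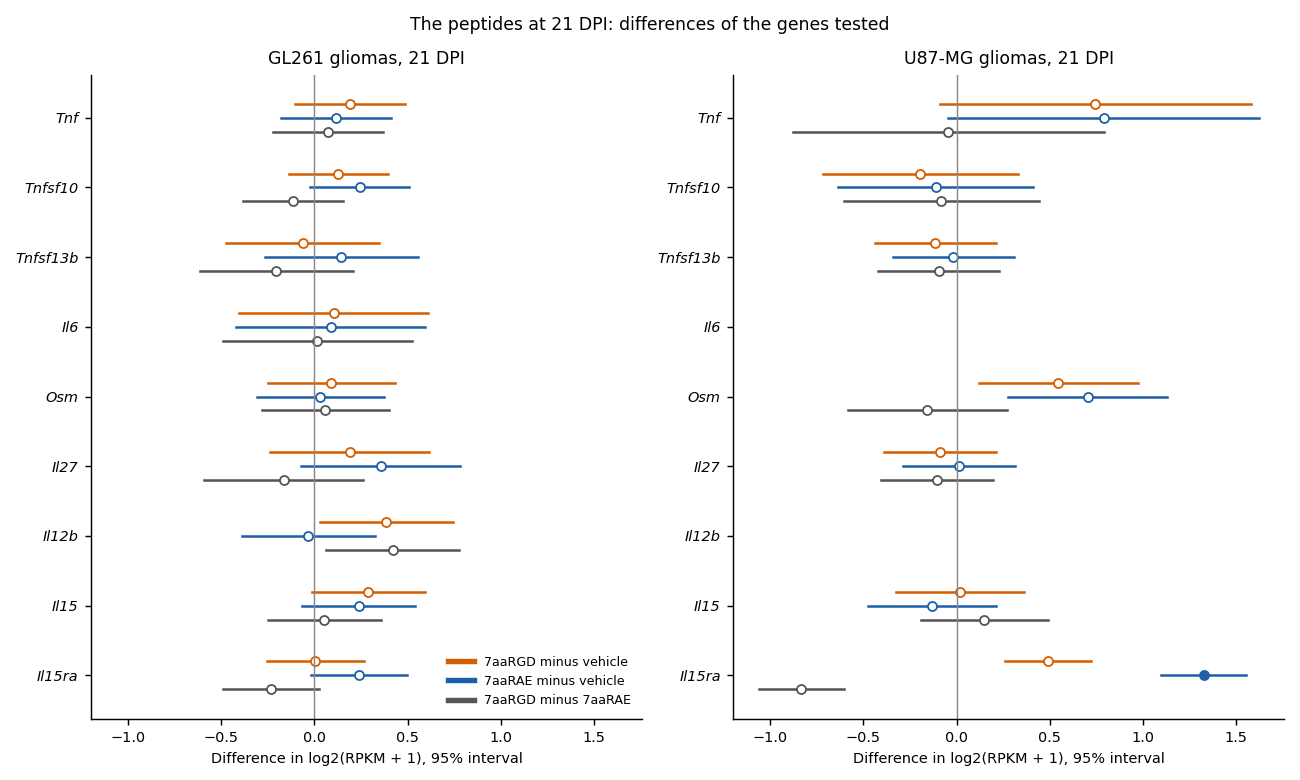
Difference in log2(RPKM + 1) between the peptide groups and vehicle and between both peptides at 21 DPI (points, with 95% intervals as lines) in GL261 (left) and U87-MG gliomas (right); filled points passed the adjusted threshold of 0.05, and genes under 1 RPKM have no point. Il15ra with 7aaRAE in U87-MG gliomas (1.32) was the 1 difference that passed.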

How the data were processed

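CD11b+ cells were sorted from brain hemispheres, and poly-A RNA was sequenced from stranded libraries. According to the study's methods and the submitters' processing notes, reads were trimmed with Trimmomatic, aligned to mm10 with STAR and counted by strand with HTSeq 0.11.1. The deposited values are RPKM with a constant of 2 added by the authors, since 2 is the value of genes without reads and the remainder multiplied by gene length gives near-equal totals for all samples; 12.6% to 14% of the other values were under 2, as after a correction of batches or bias, and such remainders were set to 0. Depth cannot be recovered from these RPKM values. Deviations of samples from their group means could fill 8 dimensions at 21 DPI and 10 at 28 DPI in GL261. They appeared to fill 7 and 9, against 6 of 6 in U87-MG. If a correction used up 1 residual degree of freedom, the p-values given for GL261 are too small. An alternative with 1 less was run, and among calls of the 10 genes it lost that of Tnfsf13b with the combination.

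Sample groups came from the deposited labels. Protein-coding genes averaging 1 RPKM or more entered limma (version 3.58.1, R version 4.3.3), using lmFit and a trended eBayes on log2(RPKM + 1) (pseudocount 1, Benjamini-Hochberg over all genes tested, two-sided, threshold 0.05), fitting all tumor-bearing groups of a table together and naive mice with vehicle alone. Fold changes on this scale understate those of low genes. NOISeq, used by the study, was not available. In the tables of U87-MG gliomas, repeated column names showed the group and not which animals. Where nothing ties samples to separate pools or litters, p-values measure only the spread between samples. The fits were tested on simulated data. Genes and lists were chosen with earlier results of these data known. Text names all 10 genes and, from each list, up to 3 tested genes with the smallest adjusted p, or else the largest difference. Some genes that this rule picks are not reported here. Gene positions are those of mm10 (GENCODE M21).

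Alternatives were another pseudocount, other filters, rescaling by median ratios or TMM, all named rows, only the groups compared, added naive mice, a replicate block, 1 residual degree of freedom less and leaving out each sample.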

Additional observations from a re-analysis of the deposited data

Results flagged for a closer look

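Tnf in the fourth 7aaRGD sample of GL261 gliomas at 28 DPI stood apart from its group, at 36.4 RPKM against 18.6, 20.0 and 19.2 RPKM in the others. The gap to the nearest sample was 0.923 of the group's range, above Dixon's 95% critical value of 0.829 for 4 samples. Of 20 sets of 4 values examined in this way (each gene in each group of 4), this was the only one, and chance marks about 1 in 20. Without this sample the combination exceeded 7aaRGD in Tnf by 1.01 (log2, limma adjusted p = 0.0271), against 0.79 (limma adjusted p = 0.072) with it.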

How the results depend on the processing

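Of 556 alternative values of the 35 differences with an unadjusted p under 0.05, 521 kept direction and side of the threshold, 33 no longer passed, 2 newly passed and 0 reversed. Of 63 other differences, 1 passed under an alternative and 28 changed sign. With a minimum of 5 RPKM the genes called numbered 2 (glioma against naive, from 7), 2 (anti-PD-1, from 4), 3 (combination, from 5), 1 (combination against 7aaRGD, from 3) and 0 (7aaRAE in U87-MG, from 1), since fewer genes were tested. Every called gene that still met this filter kept its call, and the others were not tested. The shares of all genes called under this filter are not given here. Leaving out single samples gave 6 to 8 for glioma, 1 to 4 for anti-PD-1, with 2 without vehicle sample 2 or 4 or anti-PD-1 sample 1 and 1 without anti-PD-1 sample 2, 4 to 5 for the combination, 3 to 4 against 7aaRGD and, in U87-MG, 0 to 1 between the peptides. Over all genes, leaving out single samples gave 7617 to 7904 calls for glioma, 1355 to 2253 for anti-PD-1 and 3355 to 3980 for the combination. It gave 2560 to 3423 for the combination against 7aaRGD and 0 to 3 between the peptides in U87-MG. Rescaling by median ratios or TMM kept 106 of 110 group means within 1 SD, by factors of 0.94 to 1.05.

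Deviations of samples with the same number correlated above 0.1 in 1 of 9 pairs at 21 DPI and 3 of 19 at 28 DPI. The correlations ranged from -0.77 to 0.12 at 21 DPI and from -0.5 to 0.37 at 28 DPI. The values look corrected for batches or bias, which could remove shared deviations. Whether sample numbers mark pairs therefore cannot be told from this check. With a replicate block, 6 genes were called for glioma, 3 for anti-PD-1 (Il27 at 0.70, limma adjusted p = 0.0549) and 4 for the combination. The shares of all genes called with the block in these comparisons are not given here. For U87-MG, no paired analysis was possible because the same numbered name is repeated for all columns of a group.

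Over all genes, 14 calls with 7aaRGD at 21 DPI and 63 at 28 DPI fell to 0 with either rescaling, with the replicate block and with 1 residual degree of freedom less. With no filter they were 52 and 39, and with naive mice added 74 at 21 DPI. Rescaling by median ratios moved the share of higher calls with the combination from 40.5% to 51.9% and against 7aaRGD from 35.6% to 51.6%. With only the groups compared, 7aaRAE in U87-MG had 32 calls in place of 1. The causes were not tested. Unknown depth and 3 or 4 samples a group limit what could be detected, above all for genes near 1 RPKM.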
